A study of Triticum aestivum with 24 samples.

Results

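In leaf sheaths of wheat seedlings, 28 of the 107891 gene models of the deposited table were lower in the *Rht-D1b* line than in both wild-type Cadenza and the *idd5* mutant, with water and with GA3 alike. These genes were chosen by their measured values, in TPM, the length-corrected share of a gene model in the transcripts of its library, scaled so that all libraries have the same total. The highest of the 8 *Rht-D1b* libraries had to lie below the lowest of the other 16. The mean of the 16 had to be at least 2 TPM and at least 1.5 times that of *Rht-D1b*, with 0.5 TPM added to both means. The ratio of *idd5* to Cadenza and that of GA3 to water in Cadenza, with the same 0.5 TPM added, had to lie within a factor of 1.3 of equality. Gene models around the *RHT-D1* locus on chromosome 4D, from TraesCS4D02G030400 to TraesCS4D02G050400, were left out. At most 150 genes would have been kept. The differences between *Rht-D1b* and the other lines that follow therefore describe the genes and are not tested.

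The seedlings were 7 d old and were sampled 8 h after treatment with water or 100 µM GA3. All lines were in the Cadenza background. Cadenza was the wild type. The *Rht-D1b* line was a near-isogenic line with the *Rht-D1b* allele. The *idd5* line carried chemically induced mutations in every *IDD5* homoeologue, a premature stop codon in *IDD5-A1* and *IDD5-D1* and a changed splice donor site in *IDD5-B1*, combined and backcrossed to Cadenza. Each of the 6 combinations of line and treatment had 4 biological replicates, 24 libraries in all. The labels name 1 line for each mutant, so an effect of the allele and any other inherited difference of that line cannot be told apart.

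DELLA proteins, which the *RHT1* genes encode in wheat, hold back growth in the nucleus by binding transcription factors. When gibberellin (GA) is perceived by its receptor GID1, DELLA proteins are marked for degradation and growth resumes. *Rht-D1b*, a semi-dwarfing allele used widely in breeding, encodes a DELLA protein that resists this degradation, so that cells of the leaf sheath and stem elongate less. IDD5 is a zinc-finger transcription factor that binds DELLA proteins. Bread wheat has A, B and D subgenomes, and most genes have a related copy, a homoeologue, on each. An identifier such as TraesCS4A02G333500 gives the chromosome, 4A, and a number that rises along it. Identifiers with U belong to no placed chromosome.

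No source used here pairs the identifiers of these 28 genes with a name or a function. The reference gene table held 0 of them, so each is given by its identifier. The label of the tissue could not be checked against marker genes for the same reason. Read depth is not kept in TPM and is unknown, and a value of 0 means that a gene model is listed at 0. TPM also cannot separate less transcript from reads that no longer match a gene model, and no genomic sequence was analysed here. In pieces of whole tissue, fewer cells of a type and less RNA per cell cannot be told apart.

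Of all gene models, 113 had *Rht-D1b* libraries that lay entirely below the other 16. The ratio of 1.5 left 54 of them, the minimum of 2 TPM left 42, the condition on *idd5* left 29 and the condition on GA3 in Cadenza left 28. The identifiers left out around *RHT-D1* took away 0 genes, because none of their 194 gene models had libraries that did not overlap in this direction. Just inside the limit were TraesCS7B02G190900 with a ratio of 1.53, TraesCS6D02G099400 with 1.56 and TraesCS5D02G057300 with 1.60. Just outside it were TraesCS5B02G120600 with 1.48, TraesCS4D02G050600 with 1.38 and TraesCS4A02G402800 with 1.34. In all, 58 gene models, with these included, met every other condition but fell under the ratio.

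**Figure D1:**
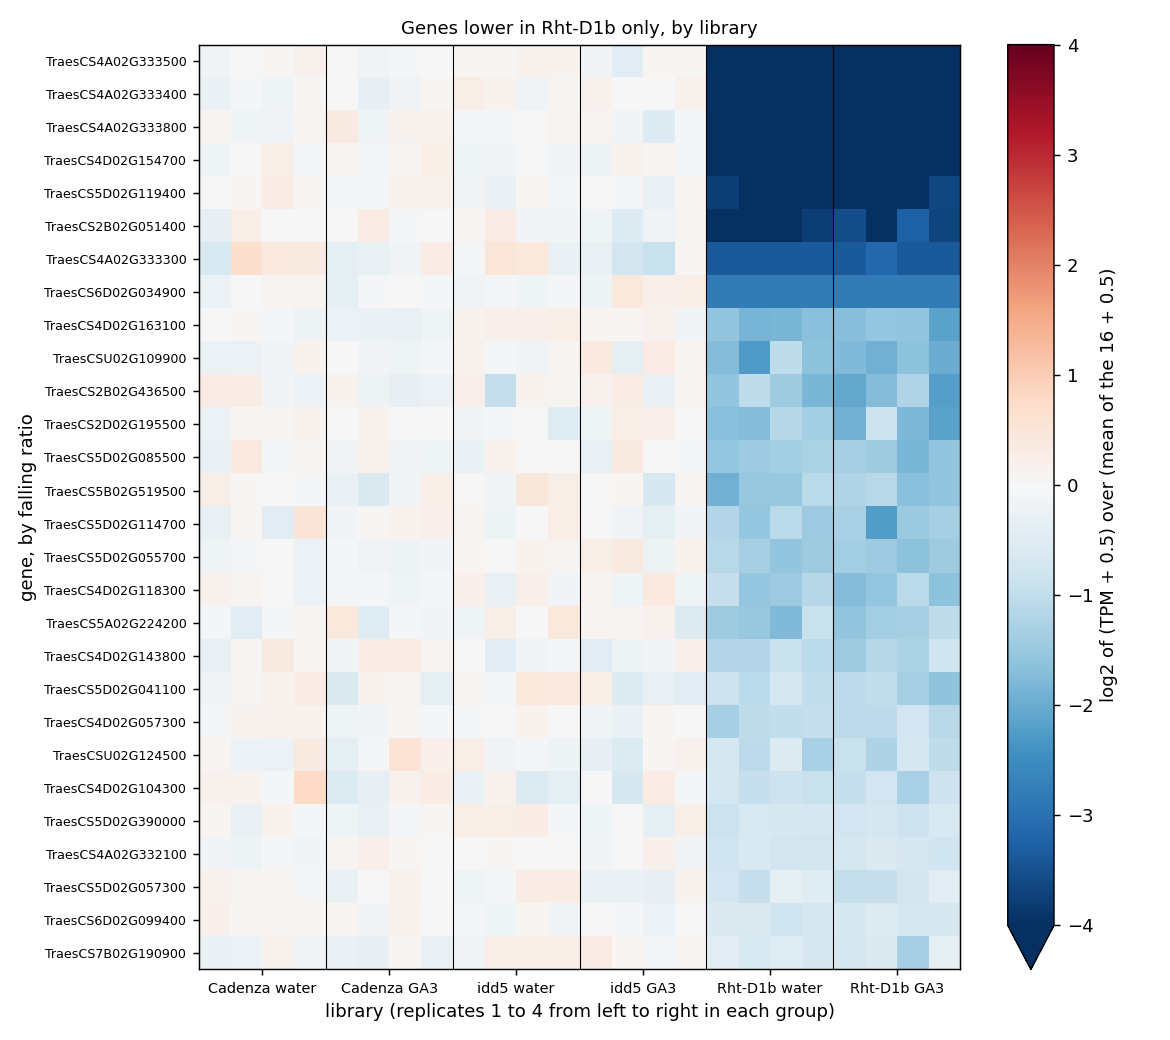
Each row is a gene, ordered by its ratio, and each column a library. Colour gives log2 of (TPM + 0.5) over the mean of the 16 Cadenza and idd5 libraries + 0.5. The top 8 rows were dark in all 8 Rht-D1b libraries, and the lower rows shade gradually towards a ratio of 1.53.

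The 28 genes differed widely in the level left in *Rht-D1b*. In 6 of them the mean of the *Rht-D1b* libraries was at most 0.53% of the mean of the other 16. Another 2 kept 3.46% and 3.50%, a further 10 kept between 22.3% and 37.2%, and the last 10 kept up to 63.5%. No gene lay between 3.50% and 22.3%, while above 22.3% the values ran on without such a gap and are divided here at 40% for description. The median over the 28 genes was 33.4%, and it was 32.1% in water and 31.9% with GA3 when each treatment was taken alone. For each of the 28 genes, the level relative to the other lines differed by less than 10 percentage points between the treatments. For the genes with at most 3.50% a larger difference was hardly possible. The relative level was lower with GA3 for 13 genes and lower with water for 13. TraesCS2B02G051400 had 2.12% with water and 4.88% with GA3, not tested between lines.

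**Figure D2:**
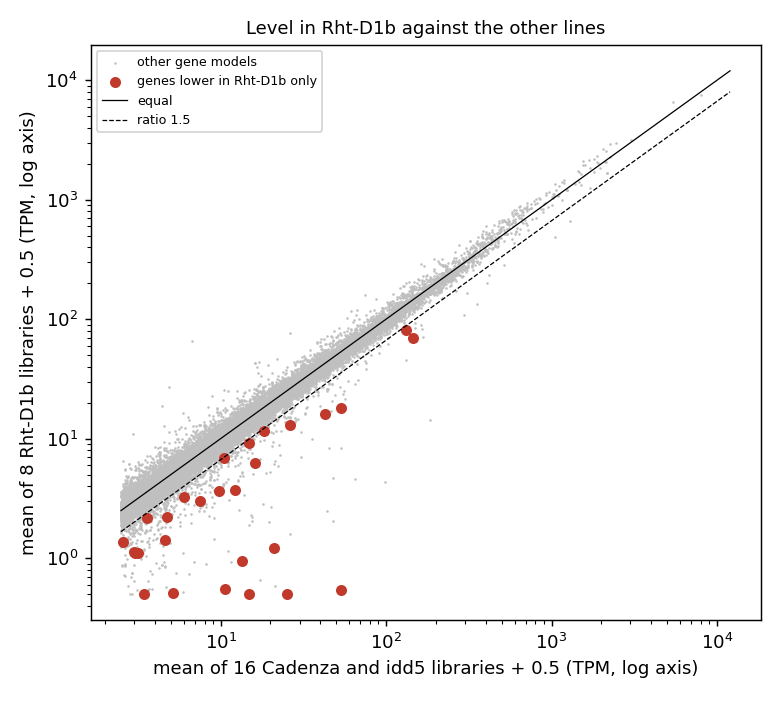
Mean of the 8 Rht-D1b libraries against the mean of the 16 other libraries, both + 0.5 TPM on log axes, for all gene models with at least 2 TPM in the 16. The 28 genes (red) lie under the dashed line of a ratio of 1.5, and those at the bottom had residual levels of at most 0.53%.

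The genes ranged widely in abundance. Their means in the other 16 libraries ran from 2.07 to 145 TPM with a median of 10.9 TPM. Together the 28 genes summed to between 609 and 685 TPM in the Cadenza libraries, to between 602 and 732 TPM in the *idd5* libraries and to between 215 and 268 TPM in the *Rht-D1b* libraries. The sums of *Rht-D1b* did not overlap with the others, which the choice of genes fixes. Within a library, the median level of the 28 genes was between 92.0% and 105% of the mean of the 16 in Cadenza, between 95.1% and 103% in *idd5* and between 28.4% and 34.6% in *Rht-D1b*.

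The 3 genes with the largest ratios lay close together on chromosome 4A. TraesCS4A02G333500 had 38.9 TPM in its lowest, 54.0 TPM in its median and 59.7 TPM in its highest library of the other 16. In *Rht-D1b* it had 0.05, 0, 0 and 0.09 TPM with water and 0.17, 0, 0 and 0 TPM with GA3. Its ratio, with 0.5 TPM added, was 98.9. The lowest of the other libraries was thus 229 times the highest of *Rht-D1b*.

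The next gene model, TraesCS4A02G333400, ranged from 19.5 to 30.0 TPM with a median of 24.4 TPM in the other 16 libraries and was listed at 0 in all 8 libraries of *Rht-D1b*. TraesCS4A02G333800 had between 9.88 and 18.4 TPM with a median of 14.0 TPM in the 16, against 0.04 TPM in water replicate 2 of *Rht-D1b* and 0 in the other libraries of that line. TraesCS4A02G333300, the weakest of these neighbours, ranged from 2.29 to 7.56 TPM with a median of 4.30 TPM in the 16. It reached 0.08 TPM in GA3 replicate 2 of *Rht-D1b* and was listed at 0 in the other 7. These 4 genes were thus at or near 0 TPM in *Rht-D1b* and had at least 2.29 TPM in every library of Cadenza and *idd5*.

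The stretch was followed gene model by gene model. From TraesCS4A02G332600 to TraesCS4A02G333800 there were 13 gene models, of which 8 had a mean of at least 0.5 TPM in the other lines. All 8 were at most 35.3% of that level in *Rht-D1b*. The 4 that were not among the 28 genes had low levels. TraesCS4A02G332600 had a mean of 0.833 TPM in the 16 and 0.0325 TPM in *Rht-D1b*, TraesCS4A02G332800 0.954 and 0.0287 TPM, and TraesCS4A02G333200 1.05 and 0.0075 TPM. TraesCS4A02G333700 was the least reduced, with 1.15 and 0.406 TPM, and its libraries overlapped. TraesCS4A02G333900, the next gene model after the stretch, ranged from 4.14 to 6.20 TPM in the 16 and from 4.32 to 5.34 TPM in *Rht-D1b*, and TraesCS4A02G331900 before it had means of 7.65 and 7.05 TPM. TraesCS4A02G332000, between TraesCS4A02G331900 and the stretch, had a mean of 0.659 TPM in the 16 and was listed at 0 in all 8 libraries of *Rht-D1b*, but also in 2 of the 16. The nearest well-expressed gene model on the side of the lower numbers, TraesCS4A02G332100, was itself reduced. These borders were set after the values had been seen.

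The fifth gene from this stretch of 4A, TraesCS4A02G332100, was abundant and only partly reduced. It ranged from 114 to 153 TPM with a median of 132 TPM in the 16 libraries and from 75.6 to 88.1 TPM with a median of 80.3 TPM in *Rht-D1b*, which was 61.4% of the other lines. Between it and TraesCS4A02G332600 no gene model had a mean above 0.0575 TPM in either set of libraries.

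**Figure D3:**
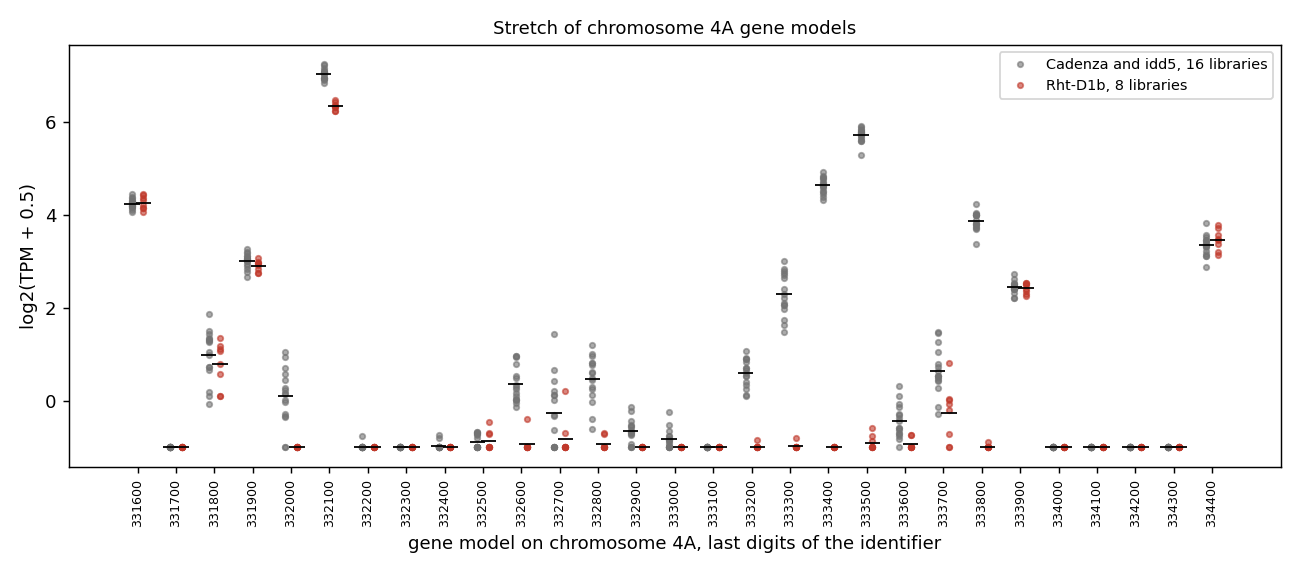
Log2(TPM + 0.5) of consecutive gene models on chromosome 4A, in identifier order, with a dot for each library and a bar for the group mean. TraesCS4A02G333300, TraesCS4A02G333400, TraesCS4A02G333500 and TraesCS4A02G333800 are at the bottom of the scale in the 8 Rht-D1b libraries (red), while TraesCS4A02G331600, TraesCS4A02G331900, TraesCS4A02G333900 and TraesCS4A02G334400 overlap between the groups.

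Another 4 genes away from 4A had residual levels of at most 3.50%. TraesCS4D02G154700 had between 8.72 and 12.1 TPM with a median of 9.92 TPM in the 16 libraries. In *Rht-D1b* it had 0, 0.07, 0 and 0.15 TPM with water and 0.09, 0.12, 0 and 0 TPM with GA3. TraesCS6D02G034900 had between 2.15 and 4.09 TPM with a median of 2.84 TPM in the 16 and was listed at 0 in all 8 libraries of *Rht-D1b*. Like the 4A genes, both were close to or at 0 throughout that line.

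TraesCS5D02G119400 was low but present. It had between 16.5 and 25.2 TPM with a median of 20.6 TPM in the other lines, and in *Rht-D1b* 1.03, 0.78, 0.41 and 0.67 TPM with water and 0.15, 0.84, 0.67 and 1.2 TPM with GA3. TraesCS2B02G051400 had between 8.92 and 16.4 TPM with a median of 13.0 TPM in the 16. Its *Rht-D1b* values were 0, 0.35, 0.29 and 0.49 TPM with water and 0.65, 0.35, 0.91 and 0.56 TPM with GA3. Of the 28 genes, 7 were listed at 0 in at least 1 *Rht-D1b* library and 2 in all 8. None was at 0 in a library of the other lines, which the choice of genes fixes.

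Of the 10 genes with 22.3% to 37.2% of the level in the other lines, TraesCS2B02G436500 and TraesCS5D02G055700 were the most abundant. TraesCS5D02G055700 ranged from 36.0 to 54.4 TPM with a median of 40.8 TPM in the 16 and from 13.3 to 19.4 TPM with a median of 15.4 TPM in *Rht-D1b*. TraesCS2B02G436500 varied more. It had 27.4 TPM in water replicate 2 of *idd5* and between 42.6 and 66.4 TPM in the other 15 libraries, and in *Rht-D1b* it ran from 11.0 to 26.3 TPM, so that only that *idd5* library was near the *Rht-D1b* range.

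TraesCS4D02G163100 had 11.8 ± 1.56 TPM (SD, n = 16) in the other lines and 3.21 ± 0.48 TPM (SD, n = 8) in *Rht-D1b*. TraesCS4D02G118300 had 15.5 ± 2.18 TPM (SD, n = 16) against 5.78 ± 1.33 TPM (SD, n = 8). Both lie on 4D, as does TraesCS4D02G154700, which was near 0 TPM in *Rht-D1b*. TraesCSU02G109900, of no placed chromosome, had 4.09 ± 0.68 TPM (SD, n = 16) against 0.91 ± 0.39 TPM (SD, n = 8). TraesCS5B02G519500 had 9.32 ± 1.86 TPM (SD, n = 16) against 3.18 ± 0.76 TPM (SD, n = 8), and TraesCS5A02G224200 had 7.05 ± 1.47 TPM (SD, n = 16) against 2.49 ± 0.62 TPM (SD, n = 8). The other 3 of this band, TraesCS2D02G195500, TraesCS5D02G085500 and TraesCS5D02G114700, had means between 2.49 and 2.66 TPM in the 16 and between 0.602 and 0.62 TPM in *Rht-D1b*. At such levels the 0.5 TPM added to both means holds the ratio down.

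The 10 least reduced genes included the most abundant ones. TraesCS5D02G041100 had the highest level of the 28 genes, from 96.2 to 192 TPM with a median of 150 TPM in the 16 libraries and from 47.4 to 89.1 TPM with a median of 71.4 TPM in *Rht-D1b*. TraesCS4D02G057300 had 25.8 ± 2.33 TPM (SD, n = 16) and 12.5 ± 1.41 TPM (SD, n = 8). It and TraesCS6D02G099400, with 17.7 ± 1.45 TPM (SD, n = 16) and 11.2 ± 0.63 TPM (SD, n = 8), were among the steadiest across libraries. TraesCS5D02G057300 had 14.3 ± 2.11 TPM (SD, n = 16) against 8.71 ± 1.55 TPM (SD, n = 8), and TraesCS7B02G190900 had 10.1 ± 1.65 TPM (SD, n = 16) against 6.38 ± 1.23 TPM (SD, n = 8). Low in all lines were TraesCS4D02G143800, TraesCS4D02G104300, TraesCS5D02G390000 and TraesCSU02G124500, with means from 2.07 to 5.54 TPM in the 16 and from 0.866 to 2.76 TPM in *Rht-D1b*.

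How far the lines were apart differed between genes. Of the 26 genes with a value above 0 in *Rht-D1b*, 8 had a lowest other library at least 2 times their highest *Rht-D1b* library. For 12 this fold was between 1.1 and 2. In the remaining 6 it was under 1.1, and there a single library decides whether the lines overlap. The smallest was that of TraesCSU02G124500, with 1.26 TPM in the lowest other library and 1.24 TPM in the highest *Rht-D1b* library. The lowest of the 16 was GA3 replicate 3 of *idd5* for 7 of the 28 genes and GA3 replicate 2 of *idd5* for 6. The highest of the 8 was spread over all the *Rht-D1b* libraries, with at most 5 genes for any of them.

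Chromosomes 4A, 4D and 5D held 18 of the 28 genes, or 64.3%, but 14.3% of the 43161 gene models with at least 2 TPM in the other lines. There were 7 genes on 5D (25.0%, against 5.46% of those gene models), 6 on 4D (21.4%, against 4.18%) and 5 on 4A (17.9%, against 4.65%). The D subgenome held 16 genes, or 57.1%, with 33.1% of the gene models. The A subgenome held 6 and the B subgenome 4, with 33.7% and 32.0% of the gene models, and 2 genes were unplaced. There was no gene on the chromosomes of homoeologous groups 1 and 3. Position was not part of the choice, apart from the interval left out on 4D. Neighbouring genes are not independent, and the 4A genes came from a single stretch.

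**Figure D4:**
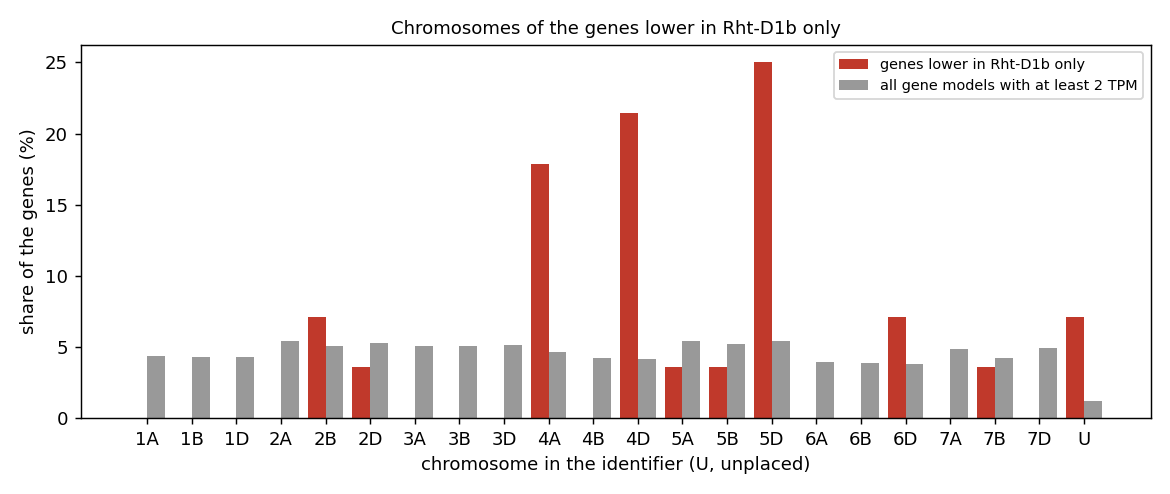
Share of the 28 genes (red) and of the 43161 gene models with at least 2 TPM in the other lines (grey) on each chromosome. Chromosomes 5D, 4D and 4A hold 25.0%, 21.4% and 17.9% of the genes, each above its grey bar.

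On 4D the 6 genes ran from TraesCS4D02G057300 to TraesCS4D02G163100, all on the side of the excluded interval with the higher numbers. That span held 27.4% of the 1805 gene models of 4D with at least 2 TPM, and the 6 genes were 1.21% of the 495 gene models in it. The other gene models of the span had a median ratio of the other lines to *Rht-D1b* of 1.04, against 1.03 over the whole of 4D and 1.02 over all chromosomes. On 5D, 6 of the 7 genes lay between TraesCS5D02G041100 and TraesCS5D02G119400, a span with 14.5% of the 2356 gene models of 5D. The 6 genes were 1.75% of the 342 gene models there, whose others had a median ratio of 1.03. Of the gene models of these spans outside the 28 genes, 98.0% of 489 on 4D and 97.6% of 336 on 5D had a ratio within a factor of 1.5 of equality, as did 98.0% of all 43161.

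The surroundings of the genes were examined next. Among the 10 gene models on each side, 18 of the 28 genes had no other gene model with at least 2 TPM and a ratio of at least 1.5. For some of the 18 this says little. TraesCS6D02G034900 had 0 neighbours with at least 2 TPM, and TraesCS4A02G332100, beside the reduced 4A stretch, had 2. The 2 unplaced genes have no known position. The remaining 10 of the 28 genes were 4 of the 4A genes, which neighbour each other, and 6 genes with 1 such neighbour each. Outside 4A, these 6 were 3.17% of the 189 neighbouring gene models with at least 2 TPM in the other lines. Of all such gene models, with the 28 genes included, 1.35% had a ratio of at least 1.5. In 3 cases it was the adjacent gene model. TraesCS5A02G224100, next to TraesCS5A02G224200, had a mean of 5.03 TPM in the 16 and 1.72 TPM in *Rht-D1b*. TraesCS4D02G143700, next to TraesCS4D02G143800, had 2.88 and 0.614 TPM, and TraesCS4D02G057400, next to TraesCS4D02G057300, had 8.60 and 4.71 TPM. In each of these adjacent gene models the libraries of *Rht-D1b* and the other lines overlapped, so they are not among the 28 genes. In the other 3 cases the libraries overlapped as well, and *idd5* and Cadenza differed by more than the factor of 1.3. The ratio of *idd5* to Cadenza was 2.53 for TraesCS2B02G051600, 2.73 for TraesCS4D02G104700 and 0.119 for TraesCS5D02G389700. Over all neighbourhoods with expressed gene models, the median ratio of those outside the 28 genes was between 0.928 and 1.11.

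The same rule was applied in the opposite direction, to genes higher in *Rht-D1b* only. It gave 24 genes, of which 15 were on the D subgenome, 7 on 4D, 4 on 5D and 0 on 4A. Of the 43161 gene models counted above, the D subgenome held 33.1%, 4D 4.18%, 5D 5.46% and 4A 4.65%. Those have at least 2 TPM in the other lines, while the reversed rule asks for 2 TPM in *Rht-D1b*. Some of the 24 genes are therefore not among them, and the shares are only a rough comparison. Some lay close to genes that were lower. TraesCS5D02G119700, 3 identifier steps from TraesCS5D02G119400, had a mean of 1.92 TPM in the 16 and 25.4 TPM in *Rht-D1b*, and its highest other library, 3.39 TPM, was far below its lowest *Rht-D1b* library, 22.1 TPM. TraesCS4D02G163700, 6 steps from TraesCS4D02G163100, had 1.48 and 3.71 TPM. TraesCS4D02G155600, 9 steps from TraesCS4D02G154700, had 4.97 and 9.50 TPM. Whether these pairs are related in sequence was not tested. For comparison, the rule was applied to *idd5* in place of *Rht-D1b*. The same 4D identifiers were left out, and none around the mutated *IDD5* genes, of which *IDD5-A1* is on 2A. This gave 63 lower genes, of which 45 were on 2A, 3 on the D subgenome and 1 on 4A, 4D or 5D. Chromosome 2A held 5.41% of the 43161 gene models, which were counted by their level in Cadenza and *idd5*, not in Cadenza and *Rht-D1b*. The 2 lists are thus unlike in whether the mutated loci were left out.

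The choice did not use the split of the *Rht-D1b* and *idd5* libraries by treatment, and the response to GA3 inside each line was tested. The choice did use all of these libraries to ask that the lines not overlap. A gene that GA3 moved across the border between the lines was therefore left out. For 6 and 7 of the 28 genes that border was set by GA3 replicates 2 and 3 of *idd5*. The responses below are thus not independent of the choice. Log2(TPM + 0.5) was fitted with limma for the 63241 gene models that reached 0.5 TPM in 4 or more libraries, which include all 28 genes, and p-values were adjusted over all of them. A gene was called at an adjusted p-value under 0.01. In the *Rht-D1b* libraries themselves only 20 of the 28 genes reached 0.5 TPM in 4 or more libraries. The other 8 were the genes of 4A near 0 TPM with TraesCS4D02G154700, TraesCS6D02G034900, TraesCS2B02G051400 and TraesCS2D02G195500. They entered the fit through the lines where they are high, and their response in *Rht-D1b* says little. In *Rht-D1b*, 0 of the 28 genes were called (0% of all genes tested), and 1 had an unadjusted p-value under 0.05, where 5.86% of all genes did. That gene was among the 8, so the count was 0 of the other 20. The median log2 change of the 28 genes was -0.04, against -0.01 over all genes tested, with 9 of the 28 higher with GA3 and 17 lower. The remaining 2 were the genes listed at 0 in all 8 libraries. Over all genes tested, 29568 were higher with GA3 and 33600 lower. With only the *Rht-D1b* libraries in the fit and the filter, 20 of the 28 genes were tested and their median change was -0.09. The count of 1 was 0 without water replicate 1 of *Rht-D1b* and 3 without GA3 replicate 2 or 3.

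In *idd5*, 0 of the 28 genes were called (0% of all genes tested), and 4 had an unadjusted p-value under 0.05, where 6.67% of all genes did. The median log2 change was -0.04, against -0.03 over all genes tested, with 11 genes higher and 17 lower with GA3. Over all genes tested, 26620 were higher and 36580 lower. The count of 4 was 0 without water replicate 3 or without GA3 replicate 2 of *idd5*, and 2 without water replicate 2. The difference between the responses, *Rht-D1b* minus *idd5*, was called for 0 of the 28 genes (0% of all genes tested). For 1 of them it had an unadjusted p-value under 0.05, where 4.8% of all genes did, and the median difference was 0.02, as it was over all genes tested. That gene was again among the 8 that are too low in *Rht-D1b*, and of the other 20 the count was 0. Whether this response is absent cannot be read from these tests, since a p-value that misses the threshold does not show equal levels.

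**Figure D5:**
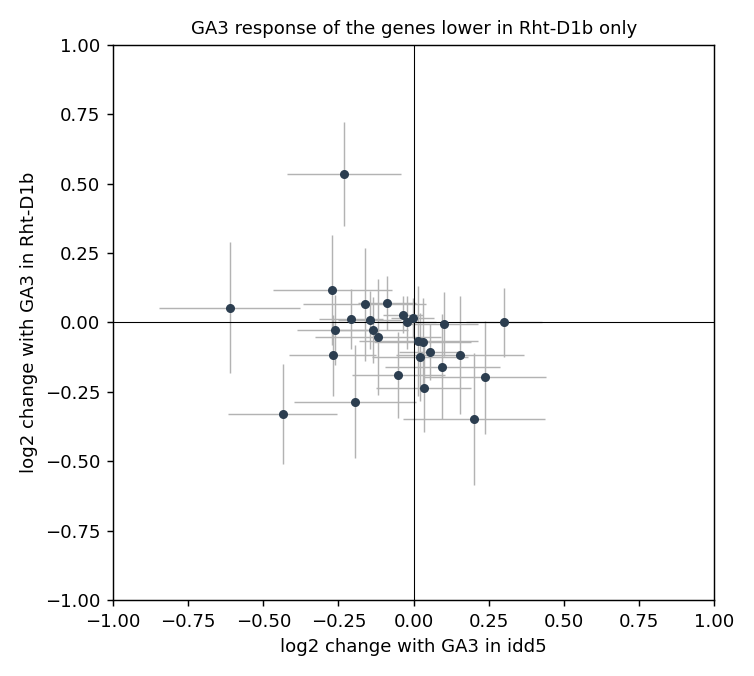
Log2 change with GA3 in Rht-D1b (vertical) against that in idd5 (horizontal) for the 28 genes, with bars of 1 standard error from limma. Most genes lie around 0 in both lines, and the highest point is TraesCS2B02G051400 at 0.53 in Rht-D1b and -0.23 in idd5.

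The smallest unadjusted p-value in *Rht-D1b* was that of TraesCS2B02G051400, whose values were given above and which reached 0.5 TPM in 3 of the 8 libraries of that line. With GA3 it had 0.617 ± 0.23 TPM (SD, n = 4) and with water 0.282 ± 0.21 TPM (SD, n = 4). The values of the treatments overlapped. Its log2 change was 0.53 (standard error 0.19, unadjusted p = 0.00969 and adjusted p = 0.745 in limma; exact two-sided permutation test, p = 0.0857). Without water replicate 1, where the gene was listed at 0, the change was 0.33, and with a pseudocount of 0.1 TPM it was 1.11. The fitted difference of its responses, *Rht-D1b* minus *idd5*, was 0.77 (standard error 0.27, unadjusted p = 0.0089 and adjusted p = 0.999 in limma) and was not called. That difference rests on *Rht-D1b* values near 0, where the pseudocount sets much of the log2 change, and says little.

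TraesCS5D02G041100, the most abundant of the genes, was among the 3 smallest p-values in both lines. In *Rht-D1b* it had 79.6, 67.8, 89.1 and 72.8 TPM with water and 69.9, 73.3, 57.1 and 47.4 TPM with GA3, a log2 change of -0.33 (standard error 0.18, adjusted p = 0.879 in limma; exact two-sided permutation test, p = 0.143). Without GA3 replicate 4 it was -0.21. In *idd5* it had 149, 136, 192 and 189 TPM with water and 171, 102, 118 and 107 TPM with GA3, a change of -0.44 (standard error 0.18, adjusted p = 0.68 in limma; exact two-sided permutation test, p = 0.114). Replicate 1 with GA3 was within the range of water in *idd5*, and the treatments overlapped in both lines.

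The remaining genes named for their response overlapped between treatments as well. TraesCS4D02G118300 differed between treatments by -0.24 in *Rht-D1b* (standard error 0.16, adjusted p = 0.915 in limma; exact two-sided permutation test, p = 0.229). The difference was -0.12 without water replicate 1 and -0.37 without GA3 replicate 3. TraesCS4A02G333300 differed by -0.61 in *idd5*, from 5.33 ± 1.43 to 3.35 ± 1.15 TPM (SD, n = 4 each; adjusted p = 0.652 in limma; exact two-sided permutation test, p = 0.114). TraesCS6D02G034900 differed by 0.30 in *idd5*, from 2.66 ± 0.11 to 3.44 ± 0.67 TPM (SD, n = 4 each; adjusted p = 0.683 in limma; exact two-sided permutation test, p = 0.143). With 4 libraries against 4, the smallest p that the exact test can give is 0.0286.

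The mutated genes and their homoeologues were examined as a check of the labels and as the pathway genes that could be identified. *RHT-D1* (TraesCS4D02G040400), which lies in the excluded interval, had between 103 and 106 TPM in water-treated and between 100 and 120 TPM in GA-treated *Rht-D1b*. In Cadenza it had between 61.5 and 70.6 TPM with water and between 83.0 and 94.2 TPM with GA3. In *idd5* it had between 46.8 and 59.1 TPM over both treatments. It was thus higher, not lower, in *Rht-D1b*, and the level does not read the allele. *IDD5-B1* (TraesCS2B02G218900) had between 7.86 and 9.57 TPM in *Rht-D1b*, between 8.58 and 10.8 TPM in Cadenza and between 30.5 and 36.8 TPM in *idd5*. The other mutated copies did not set *idd5* apart. In Cadenza, *idd5* and *Rht-D1b*, *IDD5-A1* had means of 8.93, 9.22 and 8.53 TPM. *IDD5-D1* had 11.2, 11.3 and 10.7 TPM in the same order, *RHT-A1* 94.8, 68.4 and 78.8 TPM and *RHT-B1* 89.0, 70.9 and 79.3 TPM. None of the 6 *RHT1* and *IDD5* homoeologues was among the 28 genes, and none changed with GA3 in *Rht-D1b* or *idd5* at an adjusted p-value under 0.01 in limma. The lowest unadjusted p-value among these was that of *RHT-B1* (TraesCS4B02G043100) in *idd5*, with a log2 change of 0.19 (standard error 0.076, adjusted p = 0.664 in limma).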

How the data were processed

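RNA of 24 leaf sheath libraries was sequenced as paired ends. The authors trimmed the reads with Trimmomatic (version 0.39), used Kallisto to quantify annotated gene models, and deposited the TPM of the 24 libraries in a single table. The methods name gene models of IWGSC RefSeq v1.2, the series text the v2.1 assembly, and identifiers are printed as the table has them. All libraries have the same total in TPM, so depth is unknown and no floor was derived. Of the 107891 gene models, 19249 are at 0 in every library. No 2 libraries were identical.

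Groups came from sample titles. Genes were chosen with Python (version 3.11.15), and the genes and lists were chosen with earlier results of these data known. Genes were named by their ratio, level, position beside the threshold or on 4A, values of 0 and smallest p for GA3. Log2(TPM + 0.5) was modelled in R (version 4.3.3) by limma (version 3.58.1) with 6 group means. Variances were shrunk towards a trend on the mean level, and p-values were adjusted by the Benjamini-Hochberg method. Exact permutation tests used scipy (version 1.17.1). The scripts were tested on simulated data. The limma p-values rest on a spread between biological replicates that is pooled over all 6 groups. For a gene near 0 in *Rht-D1b*, that spread comes mostly from the lines where it is high. The exact tests used only the libraries of the line compared. Alternatives were other pseudocounts, filters, scaling and fits, a replicate block and each library left out.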

Additional observations from a re-analysis of the deposited data

Results flagged for a closer look

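The highest or lowest value of each group of 4 libraries was compared with the others of its group for the 28 genes and for the median level of the 28 genes in each library. In 16 of the 168 groups with any spread, a value was farther from its neighbour than the 95% critical value of Dixon's test allows. By chance about 1 in 20 groups would be flagged. No explanation was tested.

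In *Rht-D1b*, 3 were single readings above 0 in groups otherwise at 0. They were 0.17 TPM of TraesCS4A02G333500 in GA3 replicate 1, 0.04 TPM of TraesCS4A02G333800 in water replicate 2 and 0.08 TPM of TraesCS4A02G333300 in GA3 replicate 2. The other one in this line was 14.98 TPM of TraesCS4D02G057300 in GA3 replicate 3, against 11.8 to 12.2 TPM.

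In *idd5*, TraesCS2B02G436500 had 27.38 TPM in water replicate 2 against 56.9 to 61.2 TPM, the value nearest to the *Rht-D1b* libraries. TraesCS7B02G190900 had 9.06 TPM in water replicate 1 against 11.96 to 12.26 TPM. In GA3 replicate 4, TraesCS5A02G224200 had 4.67 TPM against 7.57 to 7.99 TPM and TraesCS5D02G057300 had 15.61 TPM against 11.3 to 11.8 TPM.

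In Cadenza with water, TraesCS5D02G119400 had 25.2 TPM in replicate 3, TraesCS4A02G332100 had 114.42 TPM in replicate 2, and replicate 1 had 25.15 TPM of TraesCS4D02G057300 and 20.61 TPM of TraesCS6D02G099400. With GA3, replicate 2 had 2.95 TPM of TraesCS2D02G195500 and 2.93 TPM of TraesCS5D02G085500, and replicate 3 had 13.8 TPM of TraesCS4D02G118300 and 10.31 TPM of TraesCS7B02G190900. Each of these 8 values lay above every *Rht-D1b* library for its gene, which the choice of genes fixes.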

How the results depend on the processing

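The number of genes lower in *Rht-D1b* only was 28. It was 27 and 28 with pseudocounts of 0.1 and 1 in the rule, 31 and 19 with minimum means of 1 and 5 TPM, 29 with median-ratio scaling and 21 with a minimum ratio of 2. It ran from 26 to 30 with each library left out. The genes themselves changed slightly. Without GA3 replicate 3 of Cadenza there were 29, of which 26 were among the 28. With the pseudocount of 0.1, 26 of the 27 were. The table has only identifiers without the low-confidence suffix, so that alternative changed nothing.

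For GA3 in *idd5*, the count at an unadjusted p-value under 0.05 was 2 with a pseudocount of 0.1, 2 with a filter at 2 TPM, 2 with only the groups compared and from 0 to 4 with each library left out, against 4. In *Rht-D1b* it ran from 0 to 3, against 1, with 0 without water replicate 1 and 3 without GA3 replicate 2 or 3. For the difference of responses it was 2 with a pseudocount of 0.1, 2 with only the groups compared and from 1 to 2 with each library left out, against 1. Over all genes, the number called for GA3 in *idd5* was 2 with no filter and 1 with no trend, from 0 to 3 with each library left out, against 0. It was 0 under each alternative in *Rht-D1b* and for the difference. No log2 change of a gene named for its response reversed under an alternative in which it was tested. TraesCS2B02G051400 was not tested in *Rht-D1b* with only the groups compared.

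The replicate numbers gave no clear sign of pairing in *Rht-D1b* or *idd5*, which weak correlations cannot exclude. Cadenza was not examined. The deviations of same-numbered water and GA3 libraries correlated between -0.094 and 0.046 in *Rht-D1b* and between -0.026 and 0.147 in *idd5*. Of the water libraries, only replicates 1 and 3 of *idd5* correlated best with the GA3 library of their own number. With the replicate block the counts were 1, 4 and 1, as without it, and 0 genes were called. Depth is unknown, which limits what a value near 0 can show.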
